A study of Mus musculus with 6 samples.

Results

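The 40 genes described here encode the constitutive subunits, assembly chaperones and activators of the proteasome. They were taken by name, not by any measured value, from 21992 protein-coding genes: 14 genes of the 20S core particle, 18 of the 19S cap, 4 assembly chaperones and 4 activators. Chromatin binding of CDK6 at their promoters was measured by ChIP-seq against the HA tag in murine pre/pro-B cell lines transformed with the p185 form of BCR::ABL1. The lines were made from bone marrow of Cdk6-/- mice, so that all of them lacked endogenous CDK6, and they overexpressed HA-tagged CDK6 from a retroviral vector. The kinase was wildtype in one pair of libraries (CDK6-WT, n = 2) and carried the inactivating K43M change in the other (CDK6-K43M, n = 2). Replicate numbers 1 and 2 are given in the library titles, which do not say whether the replicates were separate lines or cultures. CDK6-K43M was compared with CDK6-WT to learn whether occupancy of these promoters depends on a working kinase.

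The proteasome degrades proteins marked with ubiquitin. Its 20S core is a barrel of outer rings of alpha subunits, which gate the entry, around inner rings of beta subunits, of which Psmb5, Psmb6 and Psmb7 carry the catalytic sites. The 19S cap recognises ubiquitin and unfolds the substrate: its base holds a ring of ATPases (Psmc1 to Psmc6) and the scaffold and ubiquitin receptor subunits, and its lid holds the deubiquitinating enzyme Psmd14. Dedicated chaperones put core and base together, and activators such as PA28 (Psme1, Psme2 and Psme3) and PA200 (Psme4) can take the place of the cap. Proteasome genes are transcribed in most cells, and their joint induction by Nfe2l1 through antioxidant response elements is known from other systems.

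The 4 peak lists held 34729 to 39797 peaks, and relative depth, recovered from the deposited values with CDK6-WT replicate 1 set to 1, ranged from 0.949 to 1.19. A promoter was taken as the 2000 bp ahead of each annotated transcript start and the 200 bp that follow it. The strength of a promoter peak is given as its percentile, which is the rank of its −log10 q among all peaks of the same list, with 100 for the strongest peak and 0 for a gene without a promoter peak. As a check of the labelled cell type, the promoters of the B-lineage marker genes Cd79a, Cd79b, Pax5, Ebf1, Vpreb1 and Igll1 each had a peak in all 4 lists, and none of the 5 markers of other lineages (Cd3e, Cd3g, Csf1r, Elane and Gata1) had a peak in any list.

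Sequence letters known as binding motifs were searched on both strands within 100 bp of the summit of each gene's highest promoter peak, a window of 201 bases. Of 9 motifs, the letters CCGGAAG, which ETS factors recognise, differed most in share between core and cap. This motif was singled out after the values were seen, and the difference was not tested. The letters were present in 12 of the 18 windows of 19S cap genes (66.7%), in 2 of the 14 windows of 20S core genes (14.3%) and in 20.5% of the 9087 windows of all protein-coding genes bound by both variants. Within the cap they were found for 4 of 6 base ATPases, 2 of 4 other base subunits and 6 of 8 lid subunits. Psme4 and Pomp also carried them, which makes 16 of 40 genes (40%). The stretches around the site nearest to the summit are shown for the 19S genes, with 10 bases to either side, in the direction of transcription on GRCm38 (mm10). The capitals mark CCGGAAG or its reverse complement CTTCCGG.
Psmc1 (chr12:100110164-100110190, plus strand): ggtggatgcaCTTCCGGcggtggcgat
Psmc2 (chr5:21785181-21785207, plus strand): ccagtgagcaCTTCCGGgatggggctc
Psmc3 (chr2:91053952-91053978, plus strand): cctcccgcctCTTCCGGttgtgcagca
Psmc6 (chr14:45329714-45329740, plus strand): ggcgggccagCCGGAAGgggcggagcc
Psmd2 (chr16:20651616-20651642, plus strand): ccgcagggcgCTTCCGGtctggaggac
Psmd4 (chr3:95042723-95042749, minus strand): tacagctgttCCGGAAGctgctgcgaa
Psmd6 (chr14:14120974-14121000, minus strand): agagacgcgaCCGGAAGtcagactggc
Psmd7 (chr8:107588439-107588465, minus strand): ggcggtcaaaCCGGAAGgggaggtgct
Psmd11 (chr11:80428594-80428620, plus strand): gagggcgggtCTTCCGGgtgtgtgttt
Psmd12 (chr11:107479501-107479527, plus strand): gagcgggcgaCTTCCGGtgcgagtgac
Psmd13 (chr7:140882378-140882404, plus strand): gcccgcggtgCCGGAAGtgagcgagca
Psmd14 (chr2:61711731-61711757, plus strand): agccgggaacCCGGAAGtacttctctg

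These sites lay between −122 bp (Psmd4) and 23 bp (Psmc1) of the nearest start, with Psmd6 at −3 bp, Psmd14 at 2 bp and Psmd11 at −8 bp. The 20S genes with these letters were an alpha and a beta subunit, shown in the same way.
Psma6 (chr12:55398813-55398839, plus strand): cgccggtgctCCGGAAGcagtagccat
Psmb7 (chr2:38643949-38643975, minus strand): tctcgcggcgCCGGAAGtgctaagttc

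The antioxidant response element letters TGACNNNGC, which Nfe2l1 and Nfe2l2 recognise, were found in 8 of 40 windows (20.0%) and in 11.1% of the windows of all genes bound by both variants. The share was alike in core and cap, with 3 of 14 and 4 of 18 genes. They are shown because they include the catalytic subunits Psmb5 and Psmb6, whose letters lay 16 and 15 bp before the start. The capitals mark TGACNNNGC or its reverse complement.
Psmb2 (chr4:126677619-126677647, plus strand): gccgcgccagTGACTGGGCcgtcgcgcgt
Psmb5 (chr14:54618024-54618052, minus strand): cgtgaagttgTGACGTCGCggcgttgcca
Psmb6 (chr11:70525338-70525366, plus strand): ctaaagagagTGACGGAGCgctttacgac
Psmc6 (chr14:45329587-45329615, plus strand): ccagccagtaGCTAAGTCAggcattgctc
Psmd3 (chr11:98682589-98682617, plus strand): gtttgcagctGCTCGGTCAtcgtgcggcc
Psmd7 (chr8:107588572-107588600, minus strand): tcaatgccaaGCTTCGTCAatagcctaag
Psme4 (chr11:30771758-30771786, plus strand): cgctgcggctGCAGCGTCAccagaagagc
Adrm1 (chr2:180171416-180171444, plus strand): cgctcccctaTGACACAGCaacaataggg

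The 5 genes with the highest mean percentile over the 4 lists are shown by the longest part of the summit window that is outside annotated exons. The capitals mark any of the letters searched.
Psmc2 (chr5:21785252-21785282, plus strand): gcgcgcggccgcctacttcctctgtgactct
Psmd12 (chr11:107479336-107479483, plus strand): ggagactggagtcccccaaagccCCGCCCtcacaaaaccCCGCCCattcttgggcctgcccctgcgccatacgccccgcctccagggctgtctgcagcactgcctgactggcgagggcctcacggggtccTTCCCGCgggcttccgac
Psma5 (chr3:108256752-108256877, plus strand): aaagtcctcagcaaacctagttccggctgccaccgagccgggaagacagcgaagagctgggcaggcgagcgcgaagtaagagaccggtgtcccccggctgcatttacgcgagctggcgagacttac
Adrm1 (chr2:180171386-180171484, plus strand): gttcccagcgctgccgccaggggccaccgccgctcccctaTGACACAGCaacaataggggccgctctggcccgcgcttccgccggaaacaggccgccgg
Psmb2 (chr4:126677471-126677629, plus strand): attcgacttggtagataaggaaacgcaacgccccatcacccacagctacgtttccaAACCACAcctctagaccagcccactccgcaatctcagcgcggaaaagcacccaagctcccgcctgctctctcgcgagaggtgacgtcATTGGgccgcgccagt

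In these stretches Psmd12 carried 2 matches to the SP1 letters GGGCGG and 1 to the E2F letters GCGGGAA, Adrm1 carried TGACNNNGC, and Psmb2 carried the NFY letters CCAAT and the RUNX letters TGTGGTT. The stretches of Psma5 and Psmc2 held none of the letters. Over whole windows, SP1 letters were found in 22 of 40 genes (55.0%, against 54.7% of all genes bound by both variants) and NFY letters in 11 (27.5% against 24.7%). YY1 letters AAGATGGCG were found in 4 (10.0% against 3.36%): Psmb6, Psmb7, Psmc5 and Psmd7. The NRF-1 letters GCGCATGCG were found in 1 gene, Psma2 (2.50% against 4.19%), E2F letters in 2 (5% against 7.15%), RUNX letters in 2 (5% against 3.30%) and the GFY letters ACTACAATT in 0 of 40 (against 0.748%). These matches describe letters and not occupancy by the factors.

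**Figure D1:**
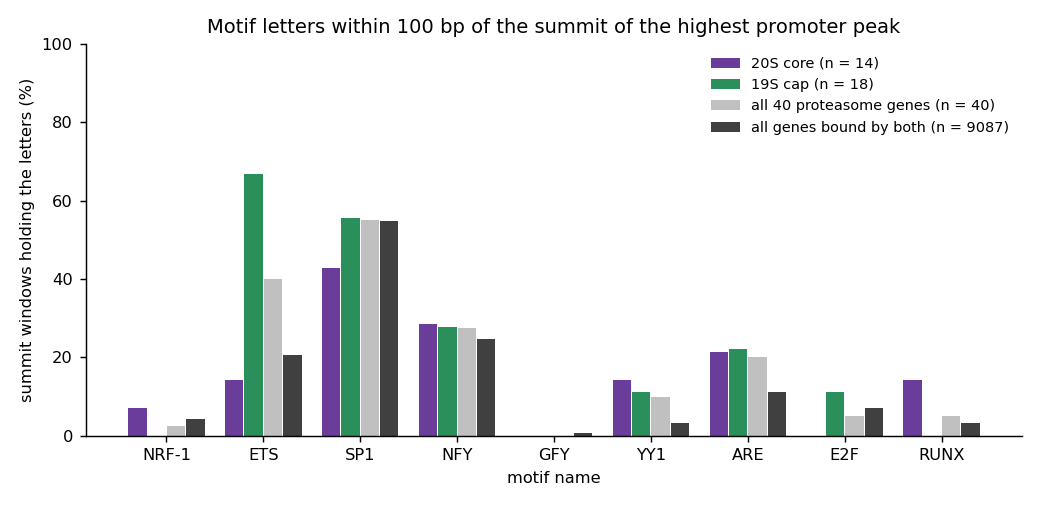
Share of summit windows (vertical axis, %) that hold the letters of each motif (horizontal axis), as bars for the 14 genes of the 20S core, the 18 of the 19S cap, all 40 proteasome genes and the 9087 windows of all genes bound by both variants. The ETS bar reaches 66.7% for the cap and 14.3% for the core.

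Genes with the ETS letters did not rank above the other proteasome genes. The median of the mean percentile over the 4 lists was 68.5 for the 16 genes with the letters and 75 for the 24 without, and 68.0 and 65.5 over all genes bound by both variants. For the TGACNNNGC letters the medians were 81.3 for 8 genes and 64.8 for 32, and 67.2 and 65.8 over all bound genes. The members with TGACNNNGC ranged from 51.0 (Psmb5) to 91.2 (Adrm1), and the members without it reached up to 93.3.

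CDK6 peaks were found at all 40 proteasome promoters in the replicate 1 libraries and at most of them in replicate 2. A promoter peak was present for 40 of 40 genes in CDK6-WT replicate 1 (47.0% of all protein-coding genes), 34 in CDK6-WT replicate 2 (40.1%), 40 in CDK6-K43M replicate 1 (48.5%) and 28 in CDK6-K43M replicate 2 (39.4%). All 4 lists held a peak for 27 of the 40 genes (33.2% of all genes). Following the study, a region with a peak in at least 3 of the 4 lists was taken as bound by both variants, and 34 of the 40 promoters held one, against 41.3% of all genes. Among promoters with a CpG observed to expected ratio of at least 0.6, which are bound more often, the counts were 29 of 32 proteasome genes and 67.6% of all genes. With only peaks of a −log10 q of at least 10, 9 of 40 genes had a peak in all 4 lists, against 8.43% of all genes. At that threshold 20 promoters held a region bound by both variants, for which no share of all genes is given.

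By role, regions bound by both variants were found for 6 of 6 base ATPases, 3 of 4 other base subunits, 8 of 8 lid subunits, 5 of 7 alpha and 5 of 7 beta subunits, 4 of 4 chaperones and 3 of 4 activators. Such a region was thus missing for 1 gene of the 19S cap (Psmd2) and 4 of the 20S core. Among promoters with a CpG ratio of at least 0.6, 10 of 11 core and 15 of 16 cap genes held one. With a −log10 q of at least 10, a peak in all 4 lists was left for 28.6% of core and 27.8% of cap genes. In each list, the summits of proteasome peaks held a median of 18 to 45.5 reads over a local background of 1.63 to 2.46 reads, with 9 reads at the lowest and 109 at the highest.

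**Figure D2:**
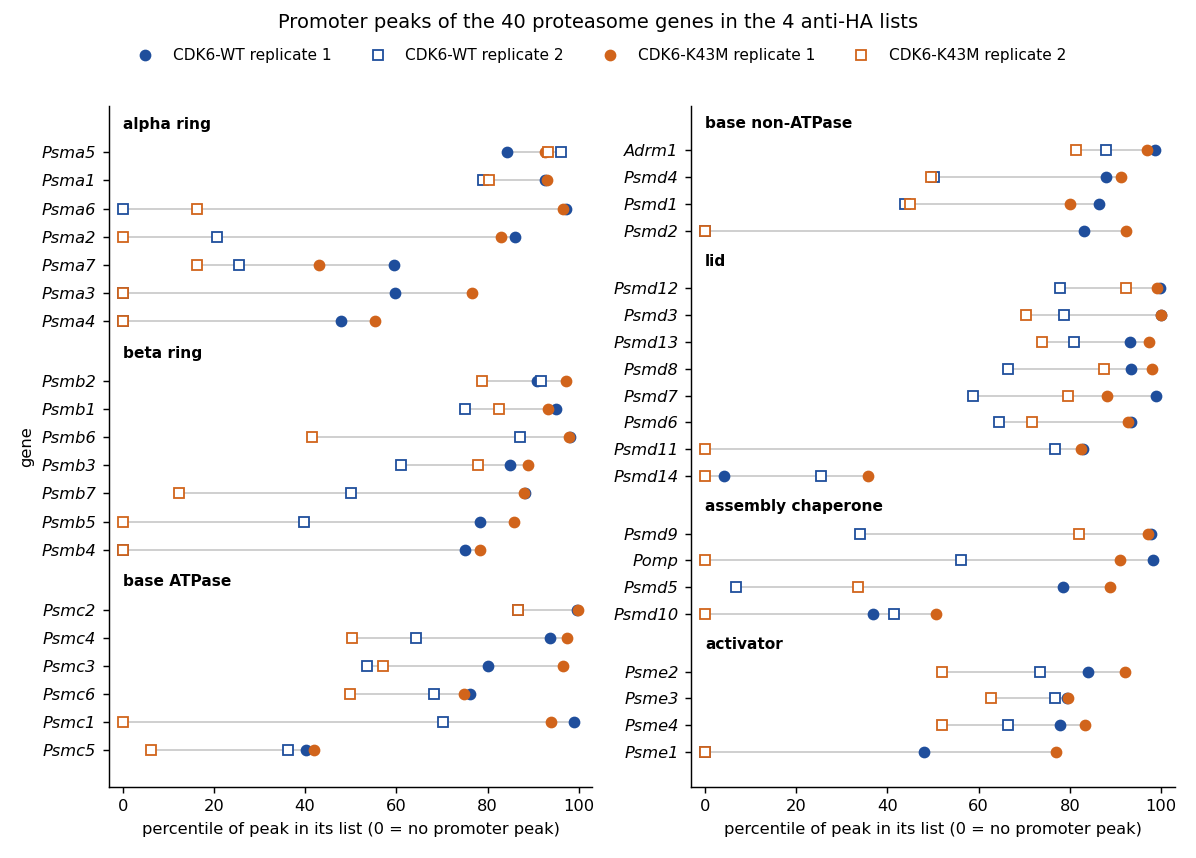
Percentile of the highest promoter peak (horizontal axis, 0 where a list has no promoter peak) for each of the 40 genes (vertical axis), by role. Filled circles are replicate 1 and open squares replicate 2 libraries, blue for CDK6-WT and orange for CDK6-K43M. The circles lie to the right of the squares for 36 of the 40 genes.

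The genes with the strongest CDK6 peaks came from the base, the lid and both rings. Psmc2, an ATPase of the base, was highest, at the 99.6th and 86.7th percentile in CDK6-WT and the 99.9th and 86.8th in CDK6-K43M (replicates 1 and 2). Its summits held 78, 29, 109 and 25 reads in that order of lists (CDK6-WT replicates 1 and 2, then CDK6-K43M replicates 1 and 2). Psmd12, a scaffold subunit of the lid, followed with 99.9 and 77.8 in CDK6-WT and 99.1 and 92.3 in CDK6-K43M. The fold enrichment of Psmd12 was 27.2, 8, 20.1 and 10.7 in the same order.

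Psma5, a subunit of the alpha ring, had percentiles of 84.3 and 96.2 in CDK6-WT and 92.6 and 93.3 in CDK6-K43M. It was the only one of the 40 genes with both replicate 2 libraries above both replicate 1 libraries, which held for 9.99% of the 11388 genes with a peak in any list. Adrm1, a ubiquitin receptor of the base, had 98.6 and 87.8 in CDK6-WT and 97.0 and 81.3 in CDK6-K43M. Psmb2, a beta subunit without a catalytic site, had 90.8 and 91.8 in CDK6-WT and 97.3 and 78.9 in CDK6-K43M. The range of the variants overlapped for all 5 genes.

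At the other end, Psmd14, the deubiquitinase of the lid, had the lowest mean percentile. Its percentiles were 4.10 and 25.5 in CDK6-WT and 35.8 and 0 in CDK6-K43M, and its summits held 10, 13 and 17 reads where there was a peak. The mean over the lists was 16.3, far from the other lid subunits, which lay between 60.5 and 92.3. Psmc5, another base ATPase, had 40.3 and 36.3 in CDK6-WT and 42.0 and 6.33 in CDK6-K43M, the last from a peak 905 bp upstream of the start. Psmd10 (gankyrin), a chaperone of the base that is also known to bind CDK4, had 36.8 and 41.5 in CDK6-WT and 50.8 and 0 in CDK6-K43M. Psma4 and Psme1 complete the lowest 5 and are among the genes without a region bound by both variants.

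Of the 6 genes without such a region, 5 had peaks in the replicate 1 lists of both variants but in no replicate 2 list, a pattern of 5.68% of all genes and of 12.3% of the genes with a peak in both replicate 1 lists. The share of proteasome genes, 12.5%, was near the latter. The alpha subunit Psma3 had percentiles of 59.8 in CDK6-WT replicate 1 and 76.7 in CDK6-K43M replicate 1, and Psma4, of the same ring, had 48 and 55.2. The beta subunit Psmb4 had 75 and 78.4, and Psmd2, the large scaffold of the base, had 83.1 and 92.3. Psme1, a subunit of the PA28 activator, had 48 and 77.0. The summits of these 10 peaks held 17 to 56 reads, so that both variants had a peak in replicate 1 and neither had one past the threshold in replicate 2.

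Psmb7, the catalytic subunit with trypsin-like activity, was the sixth. It had a promoter peak in all 4 lists, at 88.3 and 50.1 in CDK6-WT and 88.0 and 12.3 in CDK6-K43M. The replicate 1 summits lay 18 and 63 bp before a start, and 149 and 104 bp after another start further upstream. The replicate 2 summits lay 2010 and 2065 bp before that upstream start. They were thus outside the 2000 bp window, which only the edges of these peaks overlapped. The lists therefore gave separate regions, and neither had a peak in 3 of the 4.

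The 20S core ranked below the 19S cap in all 4 libraries, by little in replicate 1 and by more in replicate 2, where more core genes had no peak. The mean percentile was 81.3 for the core and 83.9 for the cap in CDK6-WT replicate 1, 44.8 and 60.6 in CDK6-WT replicate 2, 83.6 and 86.6 in CDK6-K43M replicate 1, and 35.7 and 50.1 in CDK6-K43M replicate 2. The difference was −8.98 ± 7.13 percentile points (SD, n = 4 libraries), with single values of −2.63, −15.8, −3.03 and −14.4. The spread between genes was wider, with means over the 4 lists of 61.3 ± 23.5 for the core (SD over 14 genes) and 70.3 ± 21.5 for the cap (18 genes). Peaks were present for 14 of 14 core and 18 of 18 cap genes in each replicate 1 list. The replicate 2 lists held 10 and 9 core genes against 17 and 14 cap genes. Over the genes with a peak in all 4 lists the difference was −0.914.

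Within the core, the alpha ring (mean of 53.4 ± 25.8, SD over 7 genes) lay below the beta ring (69.2 ± 19.6, 7 genes). The catalytic subunit Psmb6, with caspase-like activity, reached 98.1 and 87.1 in CDK6-WT and 97.9 and 41.5 in CDK6-K43M. Psmb5, with chymotrypsin-like activity, reached 78.4 and 39.8 in CDK6-WT and 85.7 and 0 in CDK6-K43M. Within the cap, the base ATPases had a mean of 67.6 ± 20.4 (6 genes), the other base subunits 67.1 ± 19.5 (4 genes) and the lid 73.9 ± 25.1 (8 genes). The chaperones had 55.8 ± 19 and the activators 62.8 ± 21.2, with 4 genes each. The roles overlapped in level.

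**Figure D3:**
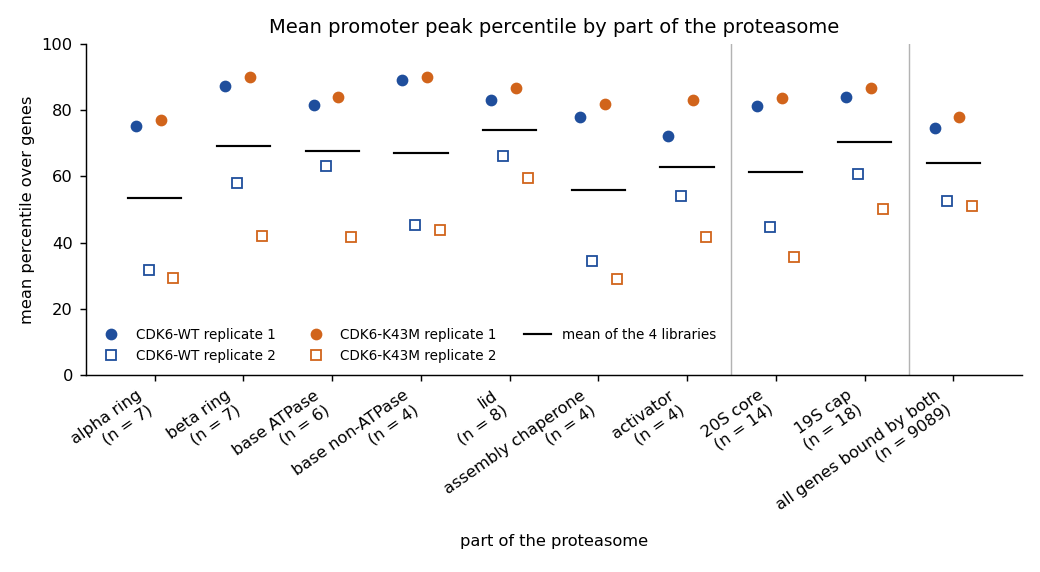
Mean percentile over genes (vertical axis, 0 to 100) for each role, for the 20S core and 19S cap and for all genes bound by both variants (horizontal axis), with 1 point per library and a line at the mean of the 4 libraries. The core and cap lie within 3.03 points of each other in the replicate 1 libraries and differ by 14.4 and 15.8 points in the replicate 2 libraries.

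The remaining genes filled the range between these. In the alpha ring, Psma1 was high in every list (92.5 and 79.1 in CDK6-WT, 93.1 and 80.2 in CDK6-K43M) and Psma7 low in every list (59.5 and 25.5, 43.1 and 16.2). Psma2 lay between, with 85.9 and 20.8 in CDK6-WT and 83.02 and 0 in CDK6-K43M. In the beta ring, Psmb1 had 95.01 and 75.1 in CDK6-WT and 93.3 and 82.6 in CDK6-K43M, and Psmb3 had 84.9 and 61.1, 88.9 and 78.02. Neither was ever without a peak.

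Among the base ATPases, Psmc4 had 93.6 and 64.4 in CDK6-WT and 97.4 and 50.3 in CDK6-K43M. Psmc3 had 80.04 and 53.6, 96.5 and 57.1, and Psmc6 had 76.1 and 68.4, 74.8 and 49.8. The base subunit Psmd1, a scaffold, had 86.4 and 43.9, 80.04 and 44.9. Psmd4, a ubiquitin receptor like Adrm1, had 87.9 and 50.1, 91.3 and 49.6. In all of these the replicate 2 values of both variants lay below the replicate 1 values.

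Apart from Psmd14 and Psmd11, each lid subunit had a peak in all 4 lists. Psmd3 had 99.9 and 78.6 in CDK6-WT and 99.9 and 70.5 in CDK6-K43M. Psmd7, the partner of Psmd14 in its enzymatic module, had 99.0 and 58.7, 88.1 and 79.7, above Psmd14 in every list. Psmd6, Psmd8 and Psmd13 lay between 64.4 (Psmd6 in CDK6-WT replicate 2) and 98.0 (Psmd8 in CDK6-K43M replicate 1).

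The base chaperones Psmd5 and Psmd9 had their lowest values in CDK6-WT replicate 2. Psmd5 had 78.6 and 6.72 in CDK6-WT and 88.7 and 33.6 in CDK6-K43M, and Psmd9 had 97.9 and 34.0, 97.1 and 82.0. The activators Psme2, Psme3 and Psme4 had peaks in all 4 lists. Psme3, the nuclear PA28 subunit, varied least among them, with 79.4 and 76.7 in CDK6-WT and 79.7 and 62.8 in CDK6-K43M. Psme2 and Psme4 shared a low of 52.0 in CDK6-K43M replicate 2, below 92.2 and 83.4 in CDK6-K43M replicate 1.

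As a group, proteasome promoters ranked near other promoters bound by CDK6. The median over the 40 genes of the mean percentile was 69.8, with single genes between 16.3 and 93.3. It was 66.1 over the 9089 genes bound by both variants and 6.54 over all protein-coding genes. The genes bound by both variants were chosen for having peaks, whereas the 40 genes were not.

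No proteasome promoter was bound by one CDK6 variant alone under the definition that the study gives. No proteasome promoter held a region unique to CDK6-WT, meaning a peak in both of its lists and in neither list of the other variant, and none held a region unique to CDK6-K43M. Such regions are rare in the series, at 0.223% and 0.709% of all genes. For 0 of 40 genes were both CDK6-K43M percentiles above both CDK6-WT percentiles, and for 0 of 40 the reverse, where the shares were 5.68% and 2.88% of the 11388 genes with a peak in any list. For 37 of the 40 genes these counts could not have been other than 0, because the replicate 1 and replicate 2 percentiles did not overlap (77.4% of the genes with a peak in any list), so that each variant had a high and a low library. For the same reason the exact permutation test of 2 libraries against 2 could not reach its smallest p of 0.33 for these 37 genes, and it says nothing about the variants there. The other 3, Psmb2, Psmd10 and Psmd14, each had a p of 1 in this exact two-sided test. Such p-values rank the difference between variants among the 6 assignments of the 4 libraries, and differences between libraries may be technical. The variants are therefore compared within each replicate number.

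The mean percentile over the 40 genes was 66.5 ± 20.8 in CDK6-WT and 63.4 ± 30.1 in CDK6-K43M (SD, n = 2 each), a difference of −3.11 percentile points that was far smaller than the spread between replicates. Within replicate number 1 the difference was 3.49 and within number 2 it was −9.71. Over all genes bound by both variants the values were 0.889 in all, 3.20 within number 1 and −1.42 within number 2. Over the 27 proteasome genes with a peak in all 4 lists they were −0.689, 1.37 and −2.74. The sign of the pooled difference was thus not shared by both numbers. CDK6-K43M was above CDK6-WT within both numbers for 6 genes (23.6% of genes with a peak in any list): Psma1, Psmb3, Psmc2, Psmc3, Psmd5 and Psmd8. The opposite held for 10 genes (17.5%): Psma2, Psma7, Psmb6, Psmb7, Psmc1, Psmc6, Psmd3, Psmd11, Pomp and Adrm1. These counts take in very small differences. In replicates 1 and 2 the difference was 0.261 and 0.086 points for Psmc2 and 10.1 and 26.9 for Psmd5. It was −0.06 and −8.14 for Psmd3 and −4.97 and −70.2 for Psmc1.

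**Figure D4:**
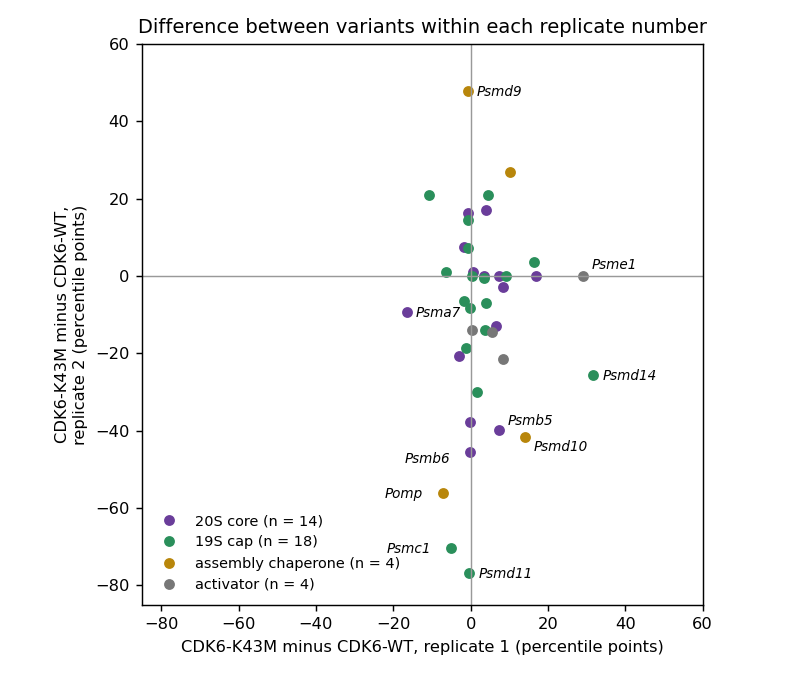
Difference in percentile between CDK6-K43M and CDK6-WT in replicate 1 (horizontal axis) and replicate 2 (vertical axis), 1 point per gene, coloured by part of the proteasome. Psmd11, Psmc1 and Pomp lie near 0 on the horizontal axis and at −76.7, −70.2 and −56.1 on the vertical axis.

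The largest drops were in CDK6-K43M replicate 2 alone. A peak was present in every list but that one for 7 genes, against 4.21% of all genes. These were 7 of the 34 with a peak in the other 3 lists (20.6%, against 11.2% of all such genes): Psma2, Psmb5, Psmc1, Psmd10, Psmd11, Psmd14 and the core assembly chaperone Pomp. Psmd11, a lid subunit, had percentiles of 82.8 and 76.7 in CDK6-WT and 82.5 in CDK6-K43M replicate 1, and no peak in CDK6-K43M replicate 2. Psmc1, another base ATPase, had 98.9, 70.2 and 93.9 in the same lists, and Pomp had 98.2, 56.1 and 91.0. The alpha subunit Psma6 was the only gene with a peak in every list but CDK6-WT replicate 2 (3.15% of all genes), with 97.3 in CDK6-WT replicate 1 and 96.6 and 16.2 in CDK6-K43M. CDK6-K43M replicate 2 was also the shallowest library (relative depth 0.949, with 15 reads at the median summit of its list against 18 to 23 in the others), and the part of depth in these absences was not tested.

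Proteasome peaks differed more between replicate numbers than between variants. The mean percentile was 83.0 ± 2.46 in the replicate 1 libraries and 46.9 ± 6.87 in the replicate 2 libraries (SD, n = 2 each), a difference of 36.0. It was 24.4 over all genes bound by both variants, which were chosen for having peaks, whereas the 40 genes include those that entered replicate 2 at 0. Over the genes with a peak in all 4 lists the difference was 24.7 for the 27 proteasome genes and 20.0 for all 7303 protein-coding genes. Both replicate 1 libraries were above both replicate 2 libraries for 36 of 40 genes, against 67.4% of the genes with a peak in any list and 75.5% of those with a peak in both replicate 1 lists. Psmb2, Psmd10 and Psmd14 overlapped. The relative depths were 1 and 1.19 in replicate 1 and 1.04 and 0.949 in replicate 2 (CDK6-WT and CDK6-K43M). The median summit of the whole list held 20 and 23 reads in replicate 1 and 18 and 15 in replicate 2. The part of depth in the replicate difference was not tested. Promoter peaks were weaker in both replicate 2 lists: the median fold enrichment of proteasome peaks was 11.2 and 12.6 in the replicate 1 lists (CDK6-WT and CDK6-K43M) and 6.94 and 6.65 in the replicate 2 lists. Over all genes with a promoter peak it was 10.0 and 10.2, and 6.42 and 6.04.

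Peaks at proteasome genes sat at the transcript start. The summit lay within 200 bp of a start for 37 of 40 genes in CDK6-WT replicate 1, 31 of 34 in CDK6-WT replicate 2, 37 of 40 in CDK6-K43M replicate 1 and 24 of 28 in CDK6-K43M replicate 2. The shares over all genes with a promoter peak were 78.3%, 71.3%, 77.6% and 69.4%. The median summit lay 31.5 to 59 bp upstream of the nearest start over the 4 lists. Over all genes with a promoter peak it lay 41 to 46 bp upstream. The 19S summits were closer, with medians of 22 to 30 bp upstream, than the 20S summits, with medians of 58 to 127 bp. Genes had from 1 (Psmc5) to 13 (Psmd11) annotated starts. More starts can shorten a distance, and the part of this in the difference was not tested. Psmd13 summits lay 24 to 58 bp upstream of the nearest start but 388 to 422 bp downstream of another of its starts. In CDK6-WT replicate 1, the peaks were 514 bp wide at the median and 12 of 40 promoters held more than 1 peak, near the values over all genes with a promoter peak (505 bp, and 3621 of 10347). In the replicate 2 lists 20.6% (CDK6-WT) and 21.4% (CDK6-K43M) held more than 1, against 32.3% and 33.4%.

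**Figure D5:**
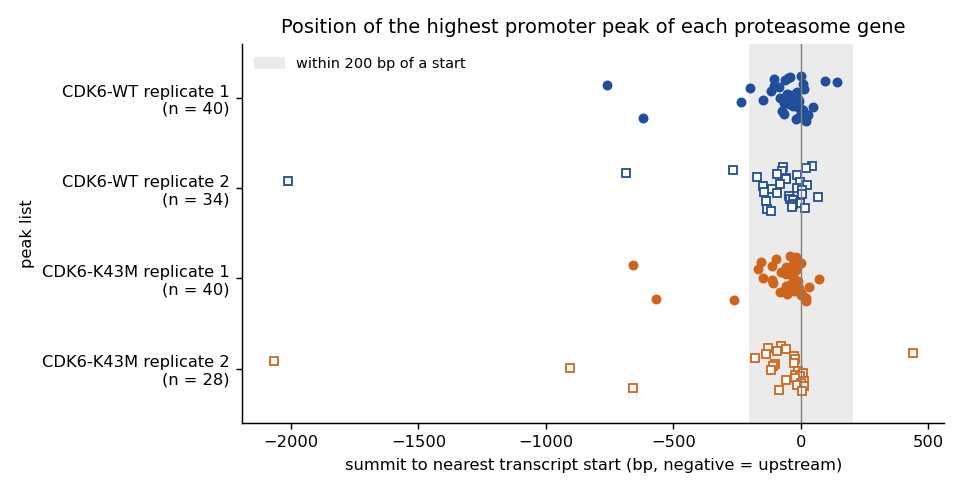
Distance of the summit of each gene's highest promoter peak from the nearest transcript start (horizontal axis, bp, negative upstream) in the 4 lists (vertical axis), 1 point per gene with a peak. Most points lie in the grey band, which reaches 200 bp up and downstream, and the Psmb7 summits of the replicate 2 lists lie 2010 and 2065 bp upstream.

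Some of these promoters are shared with a neighbour on the other strand. A protein-coding gene started divergently within 1000 bp for 9 of 40 genes (22.5%, against 10.3% of all genes). Among promoters bound by both variants the shares were closer, with 8 of 34 proteasome genes (23.5%) and 20.3% of all genes. The neighbours were Mrpl32 beside Psma2, AY074887 beside Psma4, Ss18l1 beside Psma7, Tbp beside Psmb1, Dnajc2 beside Psmc2, Ftsj3 beside Psmc5, Atg4a beside Psmd10, Sirt3 beside Psmd13 and Rnf31 beside Psme2. The starts of Psmc2 and Dnajc2 were 32 bp apart, so the peaks at Psmc2, highest by mean percentile, cannot be assigned to either gene. For Psme2, a PA28 subunit, the highest summits lay 621, 568 and 657 bp upstream in 3 lists, near the start of Rnf31 at 595 bp, and 17 bp downstream of its own start in CDK6-WT replicate 2. For Psma7 they lay 759, 687 and 660 bp upstream in 3 lists and 438 bp downstream in CDK6-K43M replicate 2.

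Among 29 related genes of the ubiquitin and proteasome system, 24 promoters held a region bound by both variants (82.8%, against 41.3% of all genes). Among CpG-rich promoters the counts were 18 of 22 related genes (81.8%) and 67.6% of all genes. The highest were Ubqln1, which shuttles ubiquitinated proteins to the proteasome (mean percentile 94.9), Ube3c, a ubiquitin ligase that acts at the proteasome (94.6), and Uchl5, a deubiquitinase of the cap that is recruited by Adrm1 (93.0). Psmb11 and Psma8, the core subunits of thymus and testis, and Ubqln2 had no promoter peak in any list. The immunoproteasome subunits Psmb8, Psmb9 and Psmb10, which replace the catalytic beta subunits, had peaks in all 4 lists with means of 49.7, 52.8 and 46.1. Psmb10 also carried 1 region unique to CDK6-K43M (3.45% of related genes had one, against 0.709% of all genes). For Psmb8 both CDK6-WT libraries (52.6 and 76.7) were above both CDK6-K43M libraries (38.2 and 31.3). The exact two-sided permutation p was 0.333, the smallest that 2 libraries against 2 can give. This order held for 1 of 26 related genes with a peak (3.85%), against 2.88% of all genes with a peak in any list. The reverse held for 0 of 26, against 5.68%. Of the factors that drive proteasome transcription, Nfe2l2 had a mean of 82.1 and Nfe2l1 of 35.4, with no peak in CDK6-K43M replicate 2.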

How the data were processed

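ChIP-seq against HA was analysed from 4 peak lists, 1 per library (not analysed here: 2 input libraries). The authors filtered reads with Trimmomatic (0.36), aligned them to mm10 with bwa-mem (0.7.15) and called peaks per library with MACS2 (2.1.0). The deposited lists hold per peak the fold enrichment, which is the ratio of reads at the summit to those of the background after 1 is added to both on the scale of the peak caller, the −log10 of p and q, a score of 10 times the −log10 q, and the summit offset. They start just past a q-value of 0.05.

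Whole reads at each summit and the local background were solved from the fold enrichment and −log10 p (tolerance 0.001), tested on simulated data, and gave relative depth. The authors annotated with GENCODE M13, and M21 was used here, both on GRCm38. Peaks overlapping by 1 bp were merged into 56748 regions. Genes without a promoter peak entered at percentile 0. Sequences came from GRCm38.p6. Values over genes are descriptions without a test, and single genes carry an exact two-sided permutation test over the 6 assignments of libraries. Tools were Python 3.11.15, pysam 0.24.0, scipy 1.17.1, matplotlib 3.10.9, pandas 2.3.3 and numpy 2.4.6. Named in full are genes without a region bound by both variants or with a variant-unique one, the 5 highest and 5 lowest by mean percentile, and the highest 3 and peakless related genes. Other members are named to complete a count or a role, and the largest drops between variants, immunoproteasome genes, Nfe2l1 and Nfe2l2 were chosen after their values were seen. Paaf1 of the related genes was not matched, and 1 marker gene is not reported here. The genes, lists and motifs were chosen with earlier results of these data known. Alternatives were stricter peaks, shorter lists, other windows or rankings, and each library left out.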

Additional observations from a re-analysis of the deposited data

Results flagged for a closer look

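The difference between CDK6-K43M and CDK6-WT over the 40 proteasome promoters had opposite signs in the replicate numbers. The mean percentile was higher in CDK6-K43M by 3.49 points in replicate 1 (81.2 to 84.7) and lower in replicate 2 (51.8 to 42.1, a difference of −9.71). The signs were also opposite over all genes bound by both variants (3.20 and −1.42). Over the 27 proteasome genes with a peak in all 4 lists the values were 1.37 and −2.74. Each value rests on 1 library per variant, and the difference between the replicate numbers was not tested.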

How the results depend on the processing

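Over 102 values of 8 results under the alternatives, 77 kept their sign and stayed within 1.5 times the count or 1 SD between libraries. For the pooled CDK6-K43M minus CDK6-WT difference this SD was 25.9, and 4 of its 14 values changed sign within it. With a minimum −log10 q of 10, 20 promoters held a region bound by both variants, 9 had a peak in all 4 lists and the median percentile was 40.6. With the top 10000 peaks per list these were 17, 8 and 30.04. Over all protein-coding genes, a peak in all 4 lists was left for 8.43% and 5.99% under these settings, from 33.2% in the main one. No such share is given for regions bound by both variants. The cause is the construction, since both settings drop peaks. The pooled CDK6-K43M minus CDK6-WT difference turned to 0.881 and 0.282 under these settings. Leaving out 1 library gave −24.4 to 18.2, and 11.6 without CDK6-WT replicate 1, since the remaining libraries are then unbalanced in replicate number. Leaving out 1 library gave 0 to 22 genes with CDK6-K43M above CDK6-WT and 0 to 21 the reverse, again with libraries unbalanced in replicate number. The reverse count was 1 with the top 10000 peaks, 2 with lists of equal length and 2 by fold enrichment, and the cause was not tested. No share over all genes is given for these counts, so they are not read as particular to the proteasome genes. The replicate difference was 44.4 and 53.4 with a minimum −log10 q of 5 and 10, and 24.7 over genes with a peak in all 4 lists, where the core minus cap difference was −0.914.

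With the replicate number as a block, the difference between variants stayed at −3.11, with 6 genes higher and 10 lower in CDK6-K43M within both numbers. Deviations from the group means correlated by 0.538 between the replicate 1 libraries over the 40 genes. The correlation was 0.582 over the 9089 genes bound by both variants. The labels do not say that a number marks a shared culture or day.

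Peak lists limit what can be said. A gene without a listed peak is not shown to lack reads, weak peaks rest on as few as 9 reads, and percentiles compare ranks within a list, not amounts of bound CDK6 between libraries. Cells without the tag were not analysed here.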
